A study of Homo sapiens with 3 samples.

Results

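The genes described here encode proteins of the splicing machinery. They were chosen by symbol alone: the SRSF genes (serine/arginine-rich splicing factors), the HNRNP genes (heterogeneous nuclear ribonucleoproteins), the SF3A and SF3B genes (subunits of splicing factor 3) and the SNRPA to SNRPG genes (proteins of the small nuclear ribonucleoproteins, snRNPs). This rule found 56 of the 31113 gene symbols in the deposited lists, of which 12 were SRSF, 24 HNRNP, 9 SF3 and 11 SNRP genes. The list of the library labelled day 2 held 55 of them, without HNRNPCL4, and the lists of the libraries labelled day 0 and day 6 each held 56.

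Splicing removes introns through the spliceosome, which assembles on each intron from snRNPs. The SNRP proteins include the ring of Sm proteins around most spliceosomal small nuclear RNAs. The SF3A and SF3B complexes belong to the U2 snRNP, which recognises the branch point. SR proteins mostly bind exons and favour their inclusion, whereas hnRNP proteins coat nascent RNA and often favour skipping. The balance between the families shifts exon choice during neural differentiation. Many SR and hnRNP genes also limit their own RNA through alternative exons that lead to decay of the transcript; counts per gene, as used here, do not separate such isoforms.

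Single cells came from H9, an established human embryonic stem cell line, and their RNA was counted with inDrop (TruDrop), in which cells are captured in droplets and every RNA molecule receives a unique molecular identifier (UMI). The labels name mTeSR, a medium for pluripotent stem cells, and the STEMdiff SMADi Neural Induction Kit, in which SMAD signalling is inhibited to direct cells towards neural progenitor cells (NPC). There were 3 libraries, 1 each labelled day 0 (letter A), day 2 (letter B) and day 6 (letter A) of this differentiation, all with the same cell line, medium and kit in their labels; the first is labelled as embryonic stem cells and the others as differentiated cells or neural progenitors. The meaning of the letters is not given in the sources used here, and the series title concerns DNA demethylation and enhancers in the same differentiation.

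Cells were kept that had 1000 or more UMIs, 500 or more genes and no more than 25% mitochondrial UMIs. By this filter 2290, 2419 and 4180 cells of the libraries labelled day 0, day 2 and day 6 were kept, with 28341741, 20626135 and 41268018 UMIs. Median UMIs per cell were 8770, 3814 and 4429, and the median mitochondrial share was 12.1%, 5.26% and 8.27%. Kept cells shared 38 barcodes between the day 2 and day 0 libraries, 72 between day 6 and day 2, and 82 between day 6 and day 0. Summed markers of pluripotent cells stood at 187, 3829 and 1496 counts per 1000000 UMIs (CPM), with POU5F1 at 2.22, 1229 and 268 CPM and TDGF1 at 0 UMIs in the day 0 library. Summed neural progenitor markers stood at 4201, 182 and 1157 CPM, with PAX6 at 176, 6.64 and 27.9 CPM. By these sums the markers went against the labels: the library labelled day 0 held the most neural progenitor RNA and the least pluripotent RNA. NANOG, at 2.19, 66.6 and 0.945 CPM, was lowest in the day 6 library. DNMT3B, at 70.6, 530.5 and 601 CPM, was highest in that library. The other listed pluripotent markers were lowest in the day 0 library and highest in the day 2 library. DLK1 alone stood at 3137, 79.5 and 315 CPM, most of the neural sum in the day 0 library. PAX6, SIX3, LHX2, HES5, NR2F1 and CDH2 were also highest there. FEZF1 (159.8, 29.4 and 424 CPM), SOX21 (53.4, 2.52 and 127 CPM) and SOX1 (1.62, 0.921 and 4.85 CPM) were highest in the day 6 library. All listed neural progenitor markers were lowest in the day 2 library. Day numbers are used below as names of libraries only, never as a course of time. TUBB3 and NEUROD1 (neuron), FOXD3 (neural crest) and SOX17 (endoderm) had 0 UMIs in the day 0 library, SOX17 also in the day 6 library, and KRT5 (surface ectoderm) in the day 2 library. TUBB3 had only 1 UMI in the day 2 library and 1 in the day 6 library. Of other cell types, neuron markers summed to 209.9, 67.6 and 236 CPM, neural crest markers to 29.8, 60.3 and 49.7 CPM, surface ectoderm markers to 184, 536 and 201 CPM, and mesoderm and endoderm markers to 1.62, 2.18 and 2.01 CPM. MAP2, at 174 CPM, made up most of the neuron sum in the day 0 library. DCX, STMN2, NEUROD1 and GAP43 were highest in the day 6 library, and ELAVL4 in the day 2 library. KRT18 (229.5 CPM) and EPCAM (212 CPM) made up most of the surface ectoderm sum in the day 2 library. The part of these markers in the results below was not tested.

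The level of a gene is its total over all kept cells, in CPM. Ratios of levels are written day 2/day 0, day 6/day 2 and day 6/day 0, and a gene was called higher or lower when the ratio reached 1.5-fold in either direction. Intervals in parentheses are 95% intervals of counting error alone, because 1 library per day leaves no replicate and no test. Of the 56 genes, 53 reached 10 CPM in at least 1 library and were counted as measured, among 10574 measured genes in all. The other 3, HNRNPCL1, HNRNPCL2 and HNRNPCL4, are intronless relatives of HNRNPC, whose sequence they nearly share, and stood at or below 0.706 CPM in every library (3 UMIs correspond to 0.106, 0.145 and 0.0727 CPM).

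Splicing factor RNA as a whole made up 1.54%, 1.66% and 1.72% of all UMIs across the day 0, day 2 and day 6 libraries. The 24 HNRNP genes summed to 9412, 9839 and 10586 CPM, the 12 SRSF genes to 1893, 2381 and 2665 CPM, the 9 SF3 genes to 889.9, 1008 and 988 CPM, and the 11 SNRP genes to 3229, 3356 and 2939 CPM. The SRSF sum differed most, at 1.41 times (1.39 to 1.42) in the day 6 library against the day 0 library. SRSF2 (164 and 559 CPM in the day 0 and day 6 libraries) and SRSF3 (235 and 499 CPM) made up most of that difference. In the same comparison the HNRNP sum was 1.12 times (1.12 to 1.13), the SF3 sum 1.11 times (1.09 to 1.13) and the SNRP sum 0.910 times (0.903 to 0.918). Single members differed little between libraries. The highest level divided by the lowest had a median of 1.34 over the 53 measured members, against 1.64 over all measured genes. This quotient stayed under 1.25 for 22 members (41.5%), against 15.0% of all genes, and reached 2 for 6 members (11.3%), against 30.9% of all genes. Those 6 were SRSF2, SRSF3, SRSF6, SRSF9, SRSF12 and HNRNPH2, so 5 of them belonged to the 12 SRSF genes. By subfamily the median quotient was 1.57 for SRSF, 1.39 for SF3, 1.29 for HNRNP and 1.18 for SNRP genes.

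The SRSF genes SRSF3, SRSF6 and SRSF12 show both directions of difference, and bases before their transcription starts are given for reference. Each stretch runs from 220 to 21 bases before the RefSeq start (build GRCh38.p14), 5′ to 3′ on the gene's strand. Of the 56 genes 52 matched the RefSeq promoter table, and of the 12 SRSF genes 11; SRSF2 did not. Capitals mark the motifs spelled CCAAT for the CCAAT box, GGGCGG for the G-rich Sp1 site or GC box, TATAAA for the TATA box, CCGGAAG for the ETS site, CACGTG for the E-box, and, for the NRF1 site, GCGC followed by any pair of bases and again by GCGC, each searched on both strands, where matches may overlap. SRSF3 lies at chr6:36594142-36594341 on the plus strand, SRSF6 at chr20:43457676-43457875 on the plus strand and SRSF12 at chr6:89118092-89118291 on the minus strand; no annotated exon of another gene lies in these stretches.
SRSF3: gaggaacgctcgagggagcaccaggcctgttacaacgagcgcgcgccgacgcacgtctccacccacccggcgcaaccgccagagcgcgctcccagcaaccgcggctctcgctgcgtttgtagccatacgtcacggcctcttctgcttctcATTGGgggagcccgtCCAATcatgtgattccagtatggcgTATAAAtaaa
SRSF6: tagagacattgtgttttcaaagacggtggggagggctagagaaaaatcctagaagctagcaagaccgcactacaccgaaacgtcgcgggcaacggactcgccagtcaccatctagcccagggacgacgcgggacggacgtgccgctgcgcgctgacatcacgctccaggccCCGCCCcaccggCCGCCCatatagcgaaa
SRSF12: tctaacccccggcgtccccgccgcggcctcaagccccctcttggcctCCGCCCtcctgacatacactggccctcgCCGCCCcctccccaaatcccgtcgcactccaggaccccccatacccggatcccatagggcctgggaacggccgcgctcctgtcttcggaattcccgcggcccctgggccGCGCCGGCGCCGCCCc
The SRSF3 stretch held 2 CCAAT matches on opposite strands and 1 TATAAA. The SRSF6 stretch held 2 GC boxes, and the SRSF12 stretch held 3 GC boxes and 1 NRF1 match. Over the 250 bases before the start, CCAAT was present in 32.0%, the GC box in 42.6%, TATAAA in 10.7%, the ETS motif in 8.52%, the E-box in 6.34% and the NRF1 motif in 7.16% of all 35116 RefSeq promoters of this length. Among 72 promoters of 52 splicing factor genes these motifs were present in 28, 37, 7, 20, 9 and 18, and among 14 promoters of SRSF genes in 3, 5, 3, 2, 0 and 5, in the same order. The median share of G and C in this window was 62.4% for the splicing factor genes, 61.4% for the SRSF genes and 58.0% for all promoters.

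The largest differences lay among the SRSF genes. SRSF2, also known as SC35, which binds exonic enhancers and is a component of nuclear speckles, stood at 164, 316 and 559 CPM across the day 0, day 2 and day 6 libraries. It was lowest in the day 0 library and highest in the day 6 library. The ratios were 1.92 (1.85 to 1.99) for day 2/day 0, 1.77 (1.72 to 1.82) for day 6/day 2 and 3.40 (3.30 to 3.51) for day 6/day 0, the highest ratio of any measured member in the last of these comparisons. SRSF2 lies on chromosome 17 at 76734115 to 76737374, and 36.7% of its exonic bases overlap MFSD11 or MIR636, though none of the last 500, where tags of this method are expected. MFSD11 itself stood at 27.0, 19.7 and 30.8 CPM.

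SRSF3, the smallest SR protein, which also takes part in RNA export, had levels of 235, 504 and 499 CPM. The day 2 and day 6 libraries were alike, with a ratio of 0.991 (0.967 to 1.01) for day 6/day 2, and both exceeded the day 0 library. The ratio was 2.14 (2.08 to 2.21) for day 2/day 0 and 2.12 (2.07 to 2.18) for day 6/day 0. SRSF7, which resembles SRSF3 and carries a zinc knuckle, did not follow it: its 233, 382 and 279 CPM peaked in the day 2 library, with 1.64 (1.58 to 1.69) for day 2/day 0 but 0.732 (0.712 to 0.754) for day 6/day 2. SRSF6, a longer SR protein with paired RNA recognition motifs, stood at 57.6, 105 and 147 CPM, in the same order of libraries as SRSF2. Its ratio was 1.82 (1.70 to 1.94) for day 2/day 0 and 2.56 (2.42 to 2.70) for day 6/day 0.

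**Figure D1:**
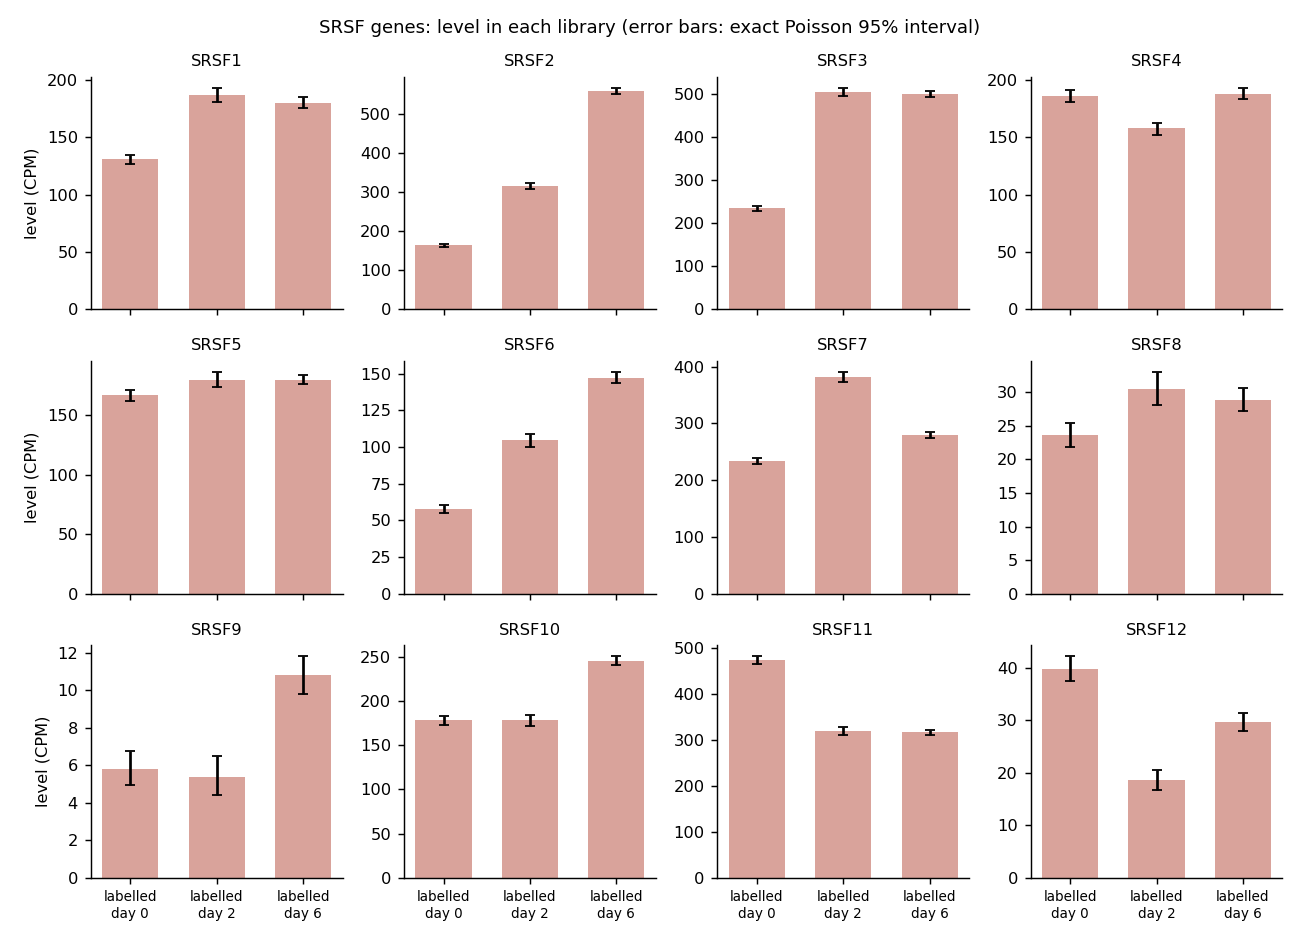
Level of each SRSF gene in counts per 1000000 UMIs (CPM), in a panel per gene with its own axis, for the libraries labelled day 0, day 2 and day 6; bars show the level and error bars the exact Poisson 95% interval of counting error. SRSF2 and SRSF6 step up across the labels, SRSF3 is about level in the day 2 and day 6 libraries, and SRSF11 is highest in the day 0 library.

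SRSF12 and SRSF11 ran the other way. SRSF12, an SR protein that represses splicing in cell extracts, stood at 39.8 CPM in the day 0 library, 18.6 CPM in the day 2 library and 29.7 CPM in the day 6 library. It was 0.466 times (0.414 to 0.524) in day 2/day 0 and 1.60 times (1.42 to 1.80) in day 6/day 2. SRSF11, which is found with both SR proteins and U2AF, stood at 473, 319 and 316 CPM and was highest in the day 0 library. At 0.674 (0.655 to 0.695) for day 2/day 0 and 0.669 (0.653 to 0.685) for day 6/day 0, it lay just short of the 1.5-fold limit, and 8 and 7 of 15 alternative settings called it lower. The day 6/day 0 ratio depended on the cells. It was 0.907 (0.832 to 0.989) in cells under 5% mitochondrial UMIs and 0.632 (0.600 to 0.665) in cells at 5 to 10%.

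The remaining SRSF genes differed less or were low. SRSF1, which binds purine-rich exonic enhancers, stood at 131, 187 and 180.4 CPM, with 1.43 (1.36 to 1.49) for day 2/day 0; 41.8% of its last 500 exonic bases overlap other annotated transcripts on its strand. SRSF10, whose splicing activity depends on its phosphorylation, stood at 178, 178 and 245 CPM, and SRSF4 and SRSF5, relatives of SRSF6, at 186, 158 and 188 CPM and at 167, 179.6 and 179.7 CPM. SRSF8, a close copy of SRSF2, stood at 23.6, 30.5 and 28.9 CPM. SRSF9, a relative of SRSF1, stood at 5.82, 5.38 and 10.8 CPM and was 2.00 times (1.62 to 2.49) in day 6/day 2. All of its last 500 exonic bases are overlapped on the other strand by GATC, at 13.0, 16.9 and 17.4 CPM, and the strand setting of the counting is not given in the sources used here, so reads of these genes cannot be told apart.

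The same differences appeared in the share of cells with a UMI. With every cell thinned to 1000 UMIs, SRSF2 was seen in 14.5%, 26.7% and 43.3% of cells of the libraries labelled day 0, day 2 and day 6, SRSF3 in 21.4%, 42.0% and 43.3%, and SRSF6 in 4.85%, 9.34% and 13.4%. SRSF12 was seen in 3.89%, 1.78% and 2.58%. Without thinning, the shares were 65.5%, 67.0% and 82.4% for SRSF2, and 39.6%, 38.4% and 54.1% for SRSF6, at the median depths given above. For 11 genes specific to organs that this culture does not contain, after leaving out KRT10, which the cells express, the highest thinned share was 0.262% (MYH6) in the day 0 library, 0.124% (MYH6) in the day 2 library and 0.215% (AMBP) in the day 6 library.

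Of 21 measured HNRNP genes, 10 stood at nearly the same level in every library. HNRNPA1 and HNRNPA2B1, which bind exonic silencers, stood at 2651, 2836 and 2776 CPM and at 891, 888 and 894 CPM. HNRNPC, which coats uridine-rich stretches of introns, stood at 1101, 963 and 1039 CPM. HNRNPA3, HNRNPD, HNRNPH1, HNRNPH3, HNRNPU, HNRNPUL1 and HNRNPUL2 complete the 10, each with its highest level under 1.25 times its lowest. The last 500 exonic bases of HNRNPU are overlapped on the other strand by COX20, at 3.92, 2.28 and 3.13 CPM against 295, 284 and 336 CPM for HNRNPU.

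The HNRNP genes that differed did so in several patterns. HNRNPAB, which binds AU-rich RNA and whose last 500 exonic bases are 39.2% overlapped on the other strand by PHYKPL (31.2, 28.1 and 31.4 CPM), stood at 80.2, 156 and 141 CPM, lowest in the day 0 library, with ratios of 1.95 (1.85 to 2.06) for day 2/day 0 and 1.76 (1.68 to 1.85) for day 6/day 0. HNRNPF, which binds runs of guanines, stood at 143, 247 and 216 CPM and was 1.72 times (1.65 to 1.80) in day 2/day 0. HNRNPH2, of the same group, stood at 32.8, 53.8 and 65.8 CPM and was 2.01 times (1.86 to 2.16) in day 6/day 0.

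HNRNPDL, a relative of HNRNPD, stood apart in the day 6 library, with 426, 488 and 734 CPM and a log2 ratio of 0.59 for day 6/day 2 and a ratio of 1.72 (1.69 to 1.76) for day 6/day 0. HNRNPM, which binds GU-rich RNA, had a like pattern at 429, 506 and 716 CPM, with 1.42 (1.38 to 1.45) for day 6/day 2. HNRNPK, which binds cytosine-rich RNA, had 503, 608 and 693 CPM, and its ratio was 1.38 (1.35 to 1.41) for day 6/day 0. HNRNPA0, of the A/B group, stood at 309, 349 and 456 CPM.

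HNRNPR and HNRNPA1L2 had their highest level in the day 0 library. HNRNPR, an RNA-binding protein with known roles in motor neurons, stood at 339, 215 and 242 CPM and was 0.635 times (0.613 to 0.658) in day 2/day 0. HNRNPA1L2 stood at 29.1, 24.0 and 15.2 CPM and was 0.636 times (0.565 to 0.717) in day 6/day 2 and 0.524 times (0.471 to 0.582) in day 6/day 0. It is an intronless near-copy of HNRNPA1, and how reads were divided between them is uncertain and was not tested. HNRNPA1, at a far higher level, was 0.979 times (0.969 to 0.989) in day 6/day 2 and 1.05 times (1.04 to 1.06) in day 6/day 0. HNRNPL, which binds CA repeats, stood at 150.1, 193 and 166 CPM, and its relative HNRNPLL at 60.2, 59.9 and 44.9 CPM.

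Among the SF3 genes, SF3B4 and SF3B3 were called. SF3B4, which contacts RNA upstream of the branch point, stood at 40.7, 64.5 and 64.7 CPM, lowest in the day 0 library, at 1.58 times (1.46 to 1.72) in day 2/day 0 and 1.59 times (1.48 to 1.70) in day 6/day 0. SF3B3, a scaffold subunit, stood at 125, 137 and 200.2 CPM, highest in the day 6 library, at 1.60 times (1.54 to 1.66) in day 6/day 0. SF3B6, which lies at the branch point adenosine, stood at 118, 131 and 93.8 CPM, at 0.715 times (0.680 to 0.751) in day 6/day 2. SF3B1, the subunit around the branch point helix, stood at 139, 158 and 126 CPM, and SF3B2 at 119, 113 and 105 CPM. SF3A1, SF3A2 and SF3A3, which form the SF3A complex, stood at 72.7, 102 and 99.2 CPM, at 45.9, 50.1 and 36.2 CPM and at 72.6, 82.2 and 90.2 CPM, and SF3B5 at 156, 170.2 and 172 CPM.

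SNRP genes were mostly at a lower level in the day 6 library than in the day 2 library. The 7 genes of the Sm ring (SNRPB, SNRPD1, SNRPD2, SNRPD3, SNRPE, SNRPF and SNRPG) summed to 2559, 2656 and 2341 CPM. For day 6/day 2, 9 of 11 SNRP genes were below 1, with a median log2 ratio of -0.22. This median lay between -0.35 and -0.062 under all alternatives. The median of all measured genes was 0.12, with quartiles of -0.28 and 0.50. The SNRP median thus lay under that of all genes but between these quartiles. The share of all genes with a ratio below 1 was not counted in this comparison. SNRPD1 stood at 329, 334 and 233 CPM, SNRPF at 513, 525 and 392 CPM and SNRPG at 269, 282 and 217 CPM, each lowest in the day 6 library, with ratios of 0.698 (0.677 to 0.720), 0.747 (0.729 to 0.766) and 0.768 (0.743 to 0.794) for day 6/day 2. SNRPD2 and SNRPE were the exceptions, at 577, 547 and 629 CPM and at 304, 261 and 291 CPM.

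Outside the ring, SNRPA1, which binds the U2 RNA, stood at 157, 141 and 101 CPM and was 0.643 times (0.616 to 0.671) in day 6/day 0, the 1 SNRP gene called in any comparison. Its partner SNRPB2 stood at 139, 135 and 124 CPM. SNRPA and SNRPC, proteins of the U1 snRNP, stood at 168, 181 and 155 CPM and at 206, 243 and 218 CPM, and SNRPB at 354, 457 and 360.2 CPM. SNRPD3 stood at 213, 249 and 218 CPM. Another annotated gene on its strand overlaps 61.2% of its last 500 exonic bases. GGT1 and GUCD1 are the genes that overlap its exons anywhere.

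Counted over all measured members, the day 2 library had 8 of 53 genes (15.1%) called higher than the day 0 library, against 20.1% of all measured genes. These were SRSF2, SRSF3, SRSF6, SRSF7, HNRNPAB, HNRNPF, HNRNPH2 and SF3B4. Called lower were 2 (3.77%), SRSF12 and HNRNPR, against 20.4% of all genes. The share called higher was thus near that of all genes and the share called lower was under it. The median log2 ratio was 0.11 for the members and 0.012 for all genes. With every deposited barcode both medians were lower, at -0.081 for the members and -0.13 for all genes. By subfamily the median over kept cells was 0.24 for SRSF, 0.16 for SF3, 0.077 for HNRNP and 0.033 for SNRP genes. The HNRNP and SNRP medians changed sign with every barcode, with at least 5% mitochondrial UMIs and with median-of-ratios size factors. They also did so in cells under 5% or at 10 to 25%. The SNRP median also changed sign with TMM factors, and the SF3 median with every barcode, to -0.023.

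The day 6 library set against the day 2 library had 4 genes (7.55%) called higher, SRSF2, SRSF9, SRSF12 and HNRNPDL, against 20.7% of all genes, and 1 (1.89%) called lower, HNRNPA1L2, against 13.4%. Both shares lay under those of all genes. The median log2 ratio was -0.0047 for the members and 0.12 for all genes. When ratios were divided by the median ratio of all genes, 2 members were called higher and 5 lower, against 15.7% and 17.1% of all genes. Medians by subfamily were 0.13 for SRSF, 0.11 for HNRNP, -0.034 for SF3 and -0.22 for SNRP genes; that of HNRNP turned to -0.015 after this division, and that of SF3 changed sign with TMM factors, with every barcode and with at least 5% mitochondrial UMIs.

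In the day 6 library against the day 0 library, 11 members (20.8%) were called higher, against 23.2% of all genes, and 2 (3.77%) lower, HNRNPA1L2 and SNRPA1, against 14.4%. The 11 were SRSF2, SRSF3, SRSF6, SRSF9, HNRNPAB, HNRNPDL, HNRNPF, HNRNPH2, HNRNPM, SF3B3 and SF3B4. After division by the median ratio of all genes these counts were 8 higher and 5 lower, against 18.8% and 18.4% of all genes. The median log2 ratio was 0.11 for the members and 0.12 for all genes, and by subfamily 0.38 for SRSF, 0.14 for HNRNP, 0.14 for SF3 and -0.11 for SNRP genes; that of SF3 was -0.090 in cells under 5% mitochondrial UMIs. The comparisons share libraries, so they are not set against each other. At 2-fold, 4 members (SRSF2, SRSF3, SRSF6 and HNRNPH2) were higher in day 6/day 0, against 10.8% of all genes. At the same limit 1 (SRSF3) was higher and 1 (SRSF12) lower in day 2/day 0, against 10.1% and 10.02%, and 1 (SRSF9) was higher in day 6/day 2, against 8.39%. No member was 2-fold lower in day 6/day 2 or day 6/day 0, against 6.25% and 6.06%. Among genes reaching 50 CPM in a library, the shares of all genes called higher and lower were 16.9% and 20.2%, 18.3% and 11.2%, and 19.4% and 13.5% for day 2/day 0, day 6/day 2 and day 6/day 0; of the 49 members at that floor, 8, 2 and 10 were called higher and 1, 0 and 1 lower.

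**Figure D2:**
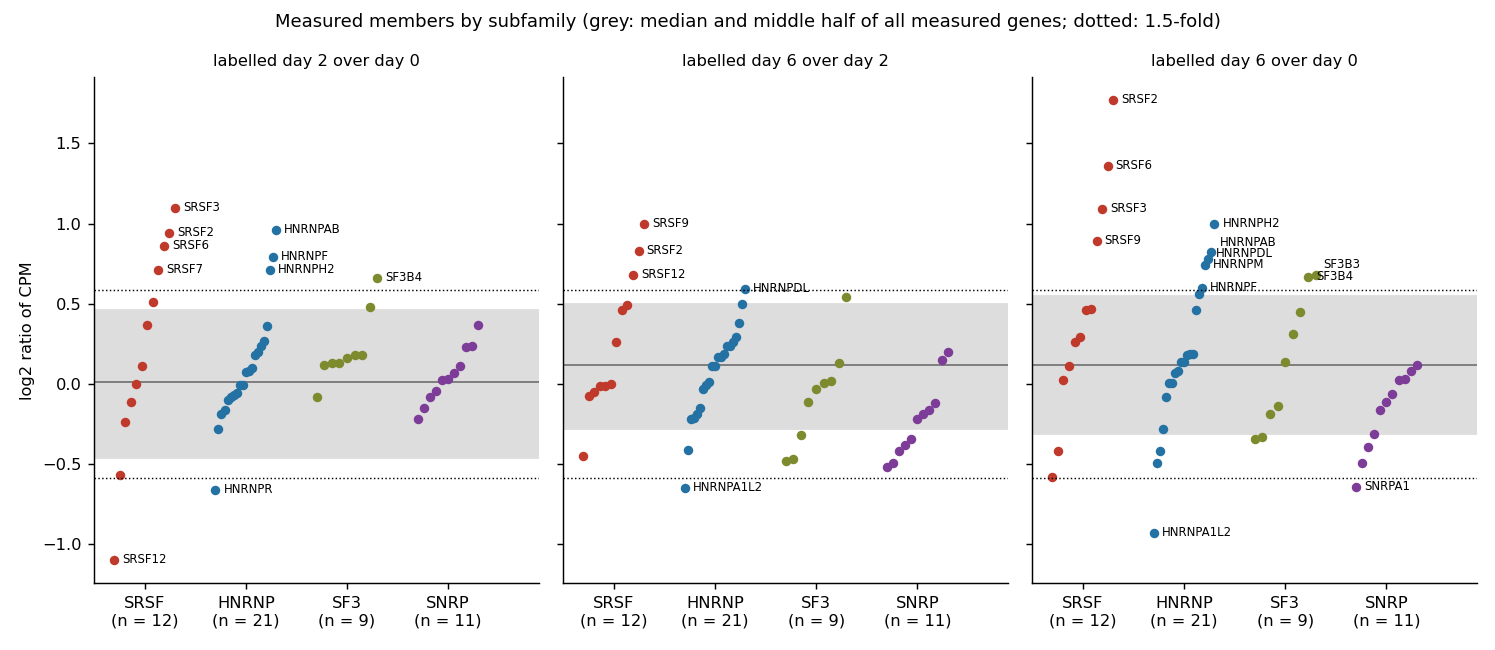
Log2 ratio of CPM for each of the 53 measured members, a point per gene ordered within its subfamily, in a panel per comparison of libraries; the grey band and line show the middle 50% and the median of all 10574 measured genes, and dotted lines mark 1.5-fold. SRSF genes spread widest, from SRSF12 at -1.10 to SRSF2 at 1.77, and SNRP genes stay within 0.64 of 0.

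Related genes were also paired, because the ratio within a pair does not depend on the library total. Of 23 pairs, mostly of paralogs, 5 shifted at least 1.5-fold upward and 3 downward for day 2/day 0, 2 and 1 for day 6/day 2, and 6 and 4 for day 6/day 0. SRSF6 relative to SRSF4 shifted 2.14-fold (1.98 to 2.31) for day 2/day 0 and 2.52-fold (2.36 to 2.69) for day 6/day 0. SRSF12 relative to SRSF10, its closest relative, was 0.465 times (0.411 to 0.526) and 0.540 times (0.494 to 0.589) in the same comparisons. SRSF7 relative to SRSF3 was 0.565 times (0.542 to 0.588) in day 6/day 0, and SRSF8 relative to SRSF2 0.360 times (0.325 to 0.397).

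Among HNRNP pairs, HNRNPAB relative to HNRNPD shifted 1.85-fold (1.74 to 1.96) and HNRNPF relative to HNRNPH1 1.85-fold (1.76 to 1.95) for day 2/day 0. HNRNPA3 relative to HNRNPA1 stayed at 0.990, 1.02 and 1.01 times in the 3 comparisons, day 2/day 0 first. Within the Sm ring, SNRPD2 relative to SNRPD1 shifted 1.65-fold (1.59 to 1.71) for day 6/day 2. SNRPN, an imprinted neural paralog outside the symbol rule, shifted 2.15-fold (2.07 to 2.23) relative to SNRPB for day 2/day 0; it stood at 276, 763 and 455 CPM, highest in the day 2 library.

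**Figure D3:**
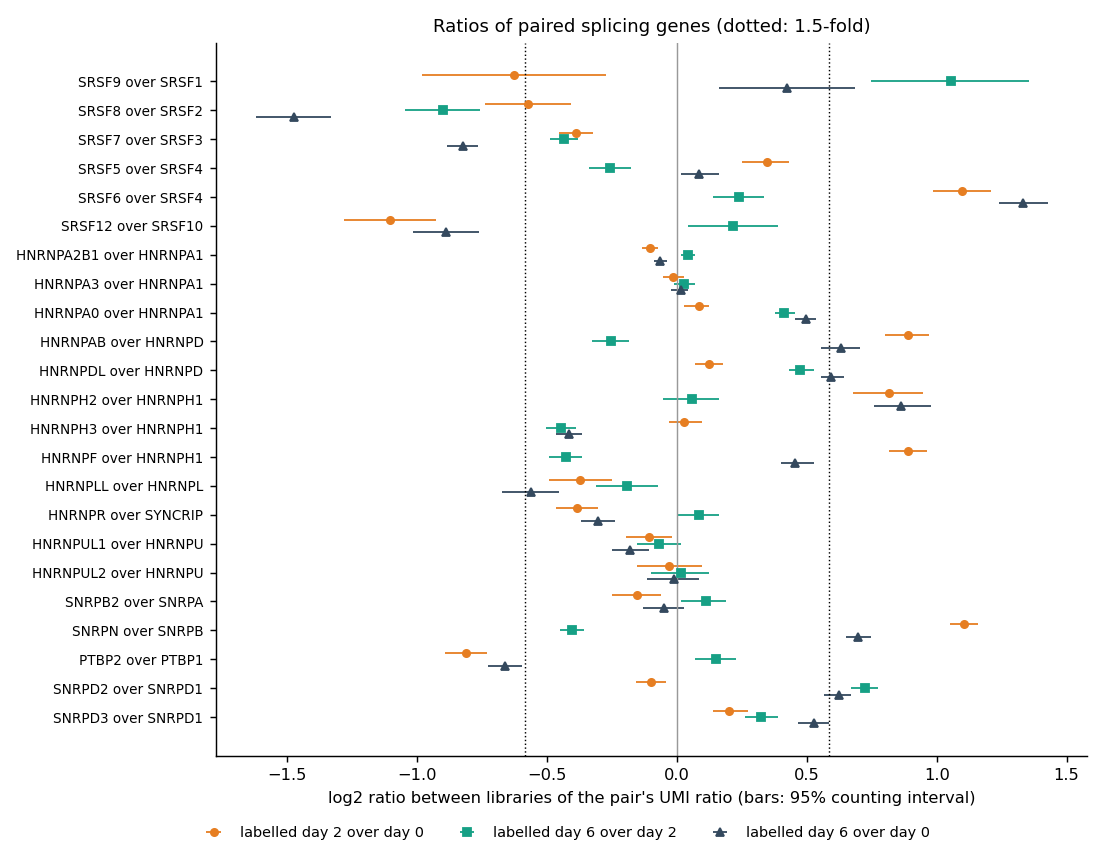
Change of the UMI ratio within each of 23 gene pairs between libraries, on a log2 scale, with bars for the 95% interval of counting error and dotted lines at 1.5-fold; circles show day 2/day 0, squares day 6/day 2 and triangles day 6/day 0. SRSF6 over SRSF4 lies far to the right at 1.10 and 1.33 for the comparisons with the day 0 library, SRSF12 over SRSF10 to the left at -1.10 and -0.89, and HNRNPA3 over HNRNPA1 at 0.

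Within each library, splicing factor levels moved with the mitochondrial share of the cell. Cells with under 5% mitochondrial UMIs, here low-share cells, were set against cells with 10 to 25%, here high-share cells. The 56 members summed to 21474 CPM in low-share cells and 14614 CPM in high-share cells of the day 0 library, to 21709 and 14437 CPM in the day 2 library, and to 23382 and 15679 CPM in the day 6 library. These rest on 463 and 1468 cells of the day 0 library, 1185 and 900 of the day 2 library, and 1648 and 1796 of the day 6 library. Depth moved with the share: median UMIs were 2768 and 11612, 3170 and 8086, and 2480 and 10479 in the same order. Ribosomal protein genes moved too, at 21.0% and 15.8%, 20.2% and 14.7%, and 17.8% and 13.5% of UMIs; their part was not tested, and for depth the values in cells of like depth and in thinned cells follow.

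Low-share cells had 21 of 53 members called higher in the day 0 library, against 16.8% of all measured genes, 25 in the day 2 library, against 16.9%, and 21 in the day 6 library, against 12.1%. Called lower were 0, 0 and 1 (SRSF4), against 22.7%, 26.0% and 19.9% of all genes. The members' median log2 ratio was 0.50, 0.56 and 0.54, and that of all genes 0.067, 0.060 and 0.10. Mitochondrial UMIs are part of the total that levels are scaled to. With totals that leave out mitochondrially encoded genes, 7, 7 and 5 members were called higher, against 6.43%, 4.69% and 3.12% of all genes, with medians of 0.30, 0.33 and 0.33 for the members and -0.14, -0.17 and -0.12 for all genes. Restricted to cells with 2000 to 8000 UMIs, 27, 16 and 19 members were called higher, against 21.9%, 17.1% and 14.5% of all genes, and with each cell thinned to 1000 UMIs 19, 12 and 19, against 22.9%, 20.3% and 15.5%. The 12 of 53 members in the thinned day 2 library lay near the share of all genes. Depth still differed within 2000 to 8000 UMIs. Median UMIs in low-share and high-share cells there were 3444 and 5142, 3772 and 4440, and 3379 and 4731 across the day 0, day 2 and day 6 libraries.

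The subfamilies differed in this comparison. All 41 measured HNRNP, SF3 and SNRP genes were above 1 in low-share cells of all 3 libraries, against 53.7%, 52.7% and 55.7% of all genes, and with totals without mitochondrially encoded genes HNRNPH1 alone among them was below 1, in the day 2 and day 6 libraries, against 42.2%, 41.1% and 42.2% of all genes above 1 on that scale. Of the 12 SRSF genes 7 were below 1 in the day 0 library, 5 in the day 2 library and 1 in the day 6 library; with totals without mitochondrially encoded genes these counts were 7, 8 and 4. The median log2 ratio of the SRSF genes was -0.10, 0.026 and 0.37, and -0.31, -0.20 and 0.15 with those totals, so that its sign in the day 2 library depended on the scale. SRSF1, SRSF3, SRSF7 and SRSF8 were above 1 in all 3 libraries on both scales, and SRSF2 was below 1 in the day 2 library without mitochondrially encoded genes. SRSF3 stood at 382 CPM in low-share and 221 CPM in high-share cells of the day 0 library, at 716 and 421 CPM in the day 2 library, and at 755 and 444 CPM in the day 6 library, a ratio of 1.73 (1.59 to 1.87), 1.70 (1.63 to 1.77) and 1.70 (1.64 to 1.76). SRSF4 ran against them, with ratios of 0.854 (0.755 to 0.962), 0.756 (0.692 to 0.826) and 0.666 (0.616 to 0.719). SRSF11 was 0.835 times (0.772 to 0.901) and 0.871 times (0.820 to 0.925) in the day 0 and day 2 libraries but 1.16 times (1.11 to 1.22) in the day 6 library. HNRNPA1 stood at 1.81, 1.78 and 1.73 times, HNRNPF at 1.81, 2.00 and 1.80 times, SF3A1 at 2.38, 1.78 and 1.63 times and SNRPF at 1.64, 1.77 and 1.69 times in low-share over high-share cells.

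**Figure D4:**
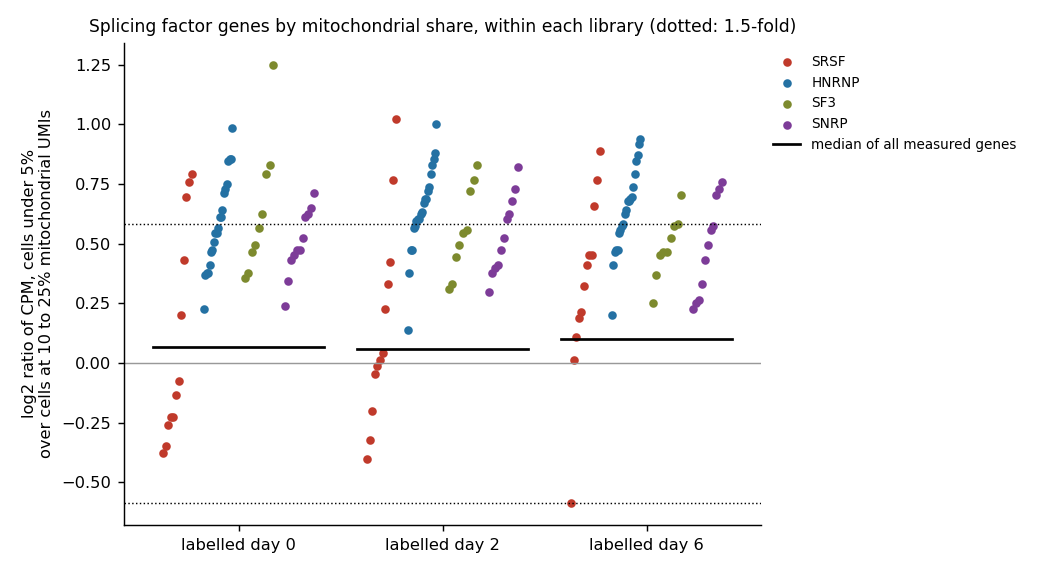
Log2 ratio of CPM in cells with under 5% over cells with 10 to 25% mitochondrial UMIs, a point per measured member, coloured by subfamily, for each library; black bars show the median of all measured genes and dotted lines mark 1.5-fold. HNRNP, SF3 and SNRP points all lie above 0 in every library, while SRSF points reach from -0.59 (SRSF4, day 6 library) to 1.02 (SRSF1, day 2 library).

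Because the libraries hold different shares of low-share cells (20.2%, 49.0% and 39.4% of cells), the ratios between libraries were repeated within cells of like mitochondrial share. SRSF2 was 1.87, 1.96 and 1.85 times in day 2/day 0 among cells under 5%, at 5 to 10% and at 10 to 25% mitochondrial UMIs, and 3.72, 3.47 and 3.24 times in day 6/day 0. SRSF3 was 1.88, 2.08 and 1.90 times and SRSF6 2.17, 1.57 and 1.87 times in day 2/day 0. SRSF12 was 0.509, 0.408 and 0.481 times in the same comparison, and HNRNPAB 1.90, 1.71 and 1.73 times. SRSF7 differed between these cells, being 1.65 and 1.58 times at 5 to 10% and 10 to 25% but 1.25 times (1.15 to 1.37) in cells under 5%. Among cells under 5%, at 5 to 10% and at 10 to 25%, day 2/day 0 was 1.58, 1.76 and 1.43 times for HNRNPF, 1.66, 1.64 and 1.40 times for HNRNPH2, 1.48, 1.24 and 1.55 times for SF3B4, and 1.40, 1.78 and 1.11 times for SRSF1. Each of these passed 1.5-fold in some of the cells and not in others. For the members as a whole, the median log2 ratio of day 2/day 0 was -0.010 among cells under 5% and 0.0017 among cells at 10 to 25%. The medians of all genes in these cells were -0.048 and -0.0083. Over all kept cells the median was 0.11 for the members and 0.012 for all genes.

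**Figure D5:**
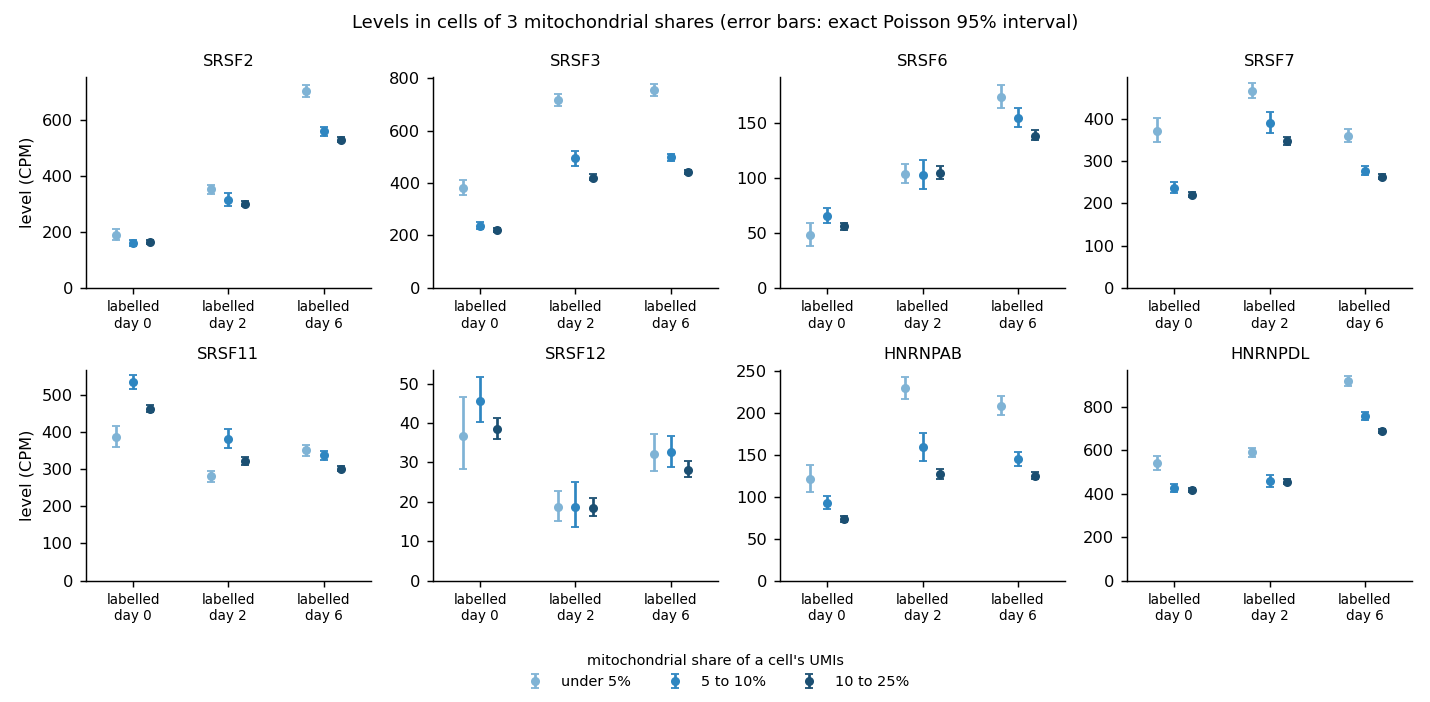
Level in CPM of 8 members in cells with under 5%, 5 to 10% and 10 to 25% mitochondrial UMIs (light to dark) of each library, in a panel per gene with its own axis; error bars are exact Poisson 95% intervals of counting error. The order of the libraries for SRSF2 is the same at each mitochondrial share, while SRSF7 in cells under 5% stands at 372, 466 and 359 CPM across the day 0, day 2 and day 6 libraries.

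Members differed little between mitotic and non-mitotic cells. Mitotic cells were those with at least 3 UMIs of a list of 12 mitotic genes after thinning to 1000 UMIs, and non-mitotic cells those with 0. SRSF3 was the 1 member called, at 294 CPM in mitotic and 181 CPM in non-mitotic cells of the day 0 library, a ratio of 1.62 (1.53 to 1.73), against 3.33%, 3.03% and 1.82% of all genes called higher in the day 0, day 2 and day 6 libraries; no member was called lower, against 3.34%, 2.43% and 1.97%. In the day 2 and day 6 libraries its ratio was 1.43 (1.36 to 1.51) and 1.21 (1.17 to 1.26). Small differences upward were common: 40, 45 and 47 of 53 members were above 1 across the day 0, day 2 and day 6 libraries, against 49.8%, 59.4% and 53.4% of all genes. The members' median log2 ratios were 0.10, 0.086 and 0.15, against -0.0010, 0.055 and 0.017 for all genes.

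Beyond the symbol rule, 6 lists of other splicing genes were counted, chosen like the members with earlier results known. In day 6/day 0, where 23.2% of all genes were higher and 14.4% lower and the median log2 ratio was 0.12, 10 of 22 measured hnRNP-like proteins (45.5%) were called higher and 1 (4.55%) lower, with a median of 0.54. In day 2/day 0 these counts were 4 (18.2%) and 1 (4.55%), against 20.1% and 20.4% of all genes, and in day 6/day 2 they were 6 (27.3%) and 1 (4.55%), against 20.7% and 13.4%. Those higher in day 6/day 0 included the paraspeckle proteins SFPQ, at 136, 242 and 523 CPM, and PSPC1, at 38.9, 53.2 and 92.8 CPM. Of 21 SR kinases and SR-like proteins 4 (19.0%) were higher and 2 (9.52%) lower in day 6/day 0, with a median of -0.27; SRRM1, a coactivator that bridges SR proteins, stood at 234, 126 and 129 CPM. In the same comparison, the 8 measured genes of U2AF and the 3′ splice site had 2 higher and 0 lower, the 17 of the U1, U5 and tri-snRNP 3 higher and 2 lower, the 18 of LSM and SMN assembly 1 higher and 0 lower, and the 14 of the Prp19 complex and catalytic steps 1 higher and 0 lower.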

How the data were processed

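Per library, whole-number counts for every pair of gene and barcode were deposited by the authors with the barcode and gene lists; the file headers call the matrices integer, and they were taken here as UMI counts because inDrop, the method in the labels, uses UMIs. The tool STAR and the build hg38 are named in the submitters' processing notes. The sources used here give neither annotation, strand setting nor barcode filter.

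Counts were summed over kept cells with Python 3.11.15, numpy 2.4.6, scipy 1.17.1 and pandas 2.3.3. Ratios have exact conditional binomial, levels exact Poisson 95% intervals; those of gene pairs use a normal approximation of the log ratio. TMM factors came from edgeR 4.0.16 in R 4.3.3, gene positions and overlaps from GENCODE 29 (hg38), and promoter bases from RefSeq (GRCh38.p14). The gene families, lists, pairs, tests and the rule for named genes were chosen with earlier results of these data known. By that rule every measured member may be named, and per comparison the 6 highest and 6 lowest, by the interval bound nearest to 1, are considered first. On simulated counts with known ratios, the calculation was tested before use. Alternatives changed the cells kept, the scaling, the weight of cells and the call limits; 5 of them, the cells of low or high mitochondrial share and the variants of that comparison, were chosen after seeing the data. Doublets were kept, and no sample was left out.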

Additional observations from a re-analysis of the deposited data

How the results depend on the processing

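No paired analysis was possible because each labelled day has 1 library. Over 36 ratios of named members and 15 settings each, 301 of 540 values stayed within the counting interval, 239 moved outside it and 0 changed direction. These ratios were picked because their intervals lay farthest from 1, so the absence of changed directions does not extend to other members. Of members not picked in day 2/day 0, SF3A1 (1.40) and HNRNPL (1.29) were at 0.953 and 0.978 in cells under 5% mitochondrial UMIs. HNRNPF was called higher under 5 of 15 settings in day 6/day 0 and under 12 in day 2/day 0, and HNRNPDL under 9 in day 6/day 2. Where no share of all genes is given above for a setting, the counts below are of members alone. Shifts shared with all genes were then not separated. With every barcode deposited, day 2/day 0 had 4 members higher (8 as reported) and a median log2 ratio of -0.081 (0.11). Under the same setting day 6/day 2 had 7 higher (4), 0 lower (1) and a median of 0.19 (-0.0047). The medians of all genes with every barcode were -0.13 for day 2/day 0 and 0.22 for day 6/day 2. With at most 10% mitochondrial UMIs, 3 were lower in day 6/day 2. With at least 5%, day 2/day 0 had 5 higher and a median of -0.0060, against -0.0079 for all genes, and day 6/day 2 had 0 lower. In day 6/day 2, 2 were lower without the 5% of cells with the most UMIs, 2 in cells with no mitotic UMI, 2 when CPM was averaged over cells, and 4 after thinning, which left 1 lower in day 6/day 0. After division by the median ratio of all genes, day 6/day 2 had 2 higher, 5 lower and a median of -0.13, and day 6/day 0 had 5 lower and a median of -0.0094. With at least 50 CPM, 1 was lower in day 2/day 0, 2 higher and 0 lower in day 6/day 2, and 1 lower in day 6/day 0. At 2-fold, 1 was higher and 1 lower in day 2/day 0, 1 and 0 in day 6/day 2, and 4 and 0 in day 6/day 0. Settings added after seeing the data gave a median of -0.010 (cells under 5% mitochondrial UMIs) and 0.0017 (10 to 25%) for day 2/day 0. The medians of all genes there were -0.048 and -0.0083. In cells under 5%, day 6/day 0 had 4 lower. Of members higher in cells of low mitochondrial share, totals without mitochondrially encoded genes left 7 of 21 (day 0 library), 7 of 25 (day 2) and 5 of 21 (day 6); in the day 2 library 16 were higher in cells of 2000 to 8000 UMIs and 12 after thinning. The causes were not tested. Depth limits members with few UMIs, such as SRSF9, with 165, 111 and 445 UMIs across the day 0, day 2 and day 6 libraries.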

Other observations

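A list of splicing regulators with known tissue-specific expression, outside the families above, had 27 measured genes. In day 2/day 0, 6 (22.2%) were at least 1.5-fold higher and 5 (18.5%) lower, near the 20.1% and 20.4% of all genes. In day 6/day 2, 9 (33.3%) were higher and 5 (18.5%) lower, against 20.7% and 13.4% of all genes, and in day 6/day 0, 10 (37.0%) were higher and 2 (7.41%) lower, against 23.2% and 14.4%. ESRP1, an epithelial splicing regulator, stood at 0.741, 124 and 19.7 CPM across the day 0, day 2 and day 6 libraries, and its paralog ESRP2 at 0.600, 10.2 and 1.87 CPM, both highest in the day 2 library. RBM47, another epithelial regulator, stood at 15.9, 87.2 and 12.2 CPM. Neuronal regulators showed no common order: NOVA1 stood at 94.8, 39.9 and 114 CPM and CELF2 at 64.9, 41.1 and 124 CPM, both lowest in the day 2 library, whereas RBFOX3 stood at 6.35, 23.6 and 14.8 CPM, highest there. NOVA2 stood at 9.84, 10.8 and 21.5 CPM and RBFOX1 at 38.0, 32.8 and 39.9 CPM. Of the muscleblind genes, MBNL2 and MBNL3 differed in opposite directions, at 37.0, 9.84 and 7.54 CPM and at 7.52, 11.4 and 58.7 CPM. MBNL1 stood at 20.8, 23.9 and 25.1 CPM and did not reach 1.5-fold in any comparison. SRRM4, which promotes neuronal microexons, stood at 3.67, 7.76 and 15.7 CPM, and its paralog SRRM3 at 2.51, 15.1 and 8.12 CPM. PTBP1, a repressor of neural exons, stood at 235, 318 and 387 CPM, and PTBP2, its neural paralog, at 180.1, 139 and 187 CPM, so that PTBP2 relative to PTBP1 was 0.570 times (0.538 to 0.603) in day 2/day 0 and 0.632 times (0.604 to 0.661) in day 6/day 0.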
